A study of Mus musculus with 19 samples.

Results

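Striatal gene expression under amphetamine was compared between mice given guide RNAs against the dopamine D2 receptor gene in the prefrontal cortex and mice given a control virus. The libraries were chosen by their titles and treatment labels and number 9 of the 19 in the series, 4 from knockout mice and 5 from control mice, each a separate animal by its label. All mice were males of the D2RCre_floxCas9-EGFP line aged 4 months, in which Cre follows the D2 receptor gene and switches on Cas9 joined to EGFP. Knockout mice (PFC_D2R-KO) received AAV5 D2R-sgRNA/mCherry in the medial prefrontal cortex, and control mice received AAV5 syn-mCherry, which by its name carries no guide. After 5 daily saline injections starting 3 weeks from surgery, these 9 mice received amphetamine at 3 mg/kg on day 9 and were killed 90 min later. The knockout was made in prefrontal cells that express the D2 receptor, and the striatum was the tissue sequenced, so no library measures the edited cells and the efficiency of editing is not part of these counts. The other 10 libraries are saline control (n = 5) and saline knockout (n = 5) mice, which share the line and the virus of their genotype and enter only as side values and in the estimate of spread.

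The striatum is made largely of GABAergic projection neurons of 2 kinds, those of the direct pathway, which carry the D1 dopamine receptor, and those of the indirect pathway, which carry the D2 receptor. Amphetamine releases dopamine from the terminals that end on these neurons and, through D1 receptors, induces immediate early genes such as Fos. Cells of the medial prefrontal cortex with D2 receptors act upstream of this system, through glutamatergic output to the striatum and to the midbrain dopamine neurons.

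Each amphetamine library held between 57003408 and 83149920 counts. Of the 9 libraries, 3 lay far from the others on the first principal components of log2 CPM (counts scaled by TMM-adjusted library size), namely knockout mouse 3, control mouse 3 and knockout mouse 2, at distances of 66.0, 57.1 and 44.1 from the origin, against at most 34.9 for the remaining 6. Choroid plexus markers were highest in knockout mouse 2 and cortical markers were highest in knockout mouse 3, with values given below. Results are therefore given with all 9 libraries and, where it matters, without knockout mice 2 and 3. That setting was added after seeing the data and keeps control mouse 3, and the fit without all 3 is given at the end. Of the saline libraries, knockout mouse 3 and control mouse 5 lay further out than these, at 86.6 and 70.9, and were kept in every fit.

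The edgeR quasi-likelihood test called 0% of 21513 genes at an adjusted p under 0.05, and its lowest adjusted p was 0.22. At an unadjusted p under 0.05 it counted 2749 genes (12.8%), of which 1600 were higher in knockout mice (7.44%) and 1149 lower (5.34%), where 1076 would be expected with no difference. limma voom called 0 genes, with a lowest adjusted p of 0.242. DESeq2 called 103 genes (0.479%), 74 of them higher (0.344%) and 29 lower (0.135%). Without knockout mouse 2 the edgeR count at an unadjusted p under 0.05 was 1575, and without mice 2 and 3 it was 408. Single genes are therefore described by their values below, and the words higher and lower refer to these 9 mice. Unless DESeq2 is named, an adjusted p is from the edgeR test over all genes.

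**Figure D1:**
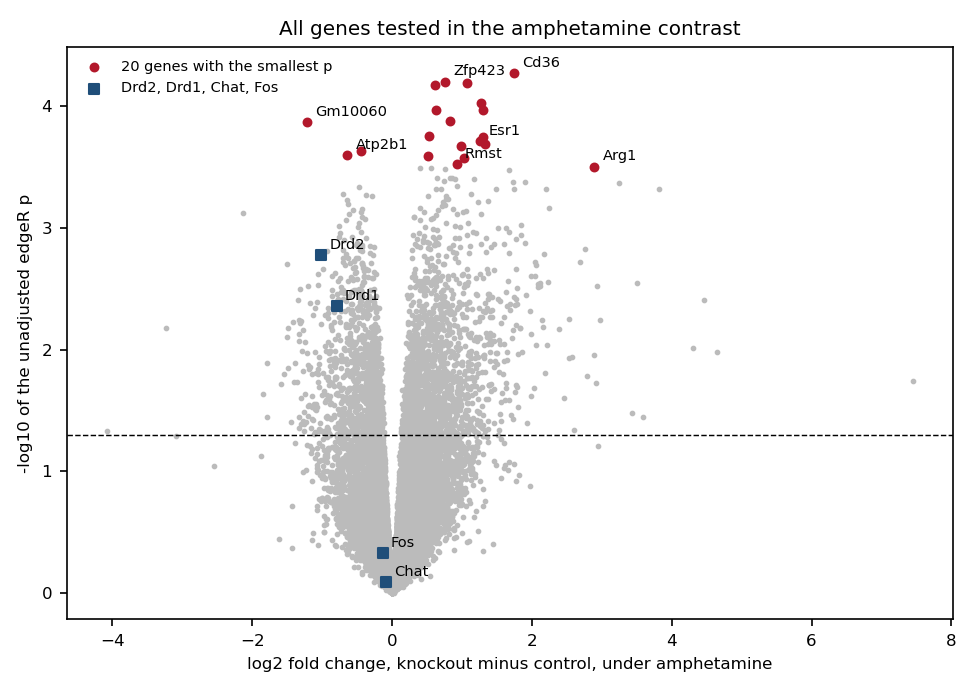
Each point is 1 of the 21513 genes tested, placed by its log2 fold change (knockout minus control under amphetamine, x axis) and by −log10 of its unadjusted edgeR p (y axis), with a dashed line at 0.05. The 20 genes with the smallest p are in red, 17 of them to the right of 0, and Drd2 and Drd1 lie to the left, above the line, while Chat and Fos lie below it.

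Drd2, the gene targeted in the cortex, encodes the D2 receptor (ENSMUSG00000032259.9, GRCm39 chromosome 9, 49251927 to 49319477). Its striatal level was 182, 151, 141, 190.2 and 200 CPM in the control mice and 113, 73.5, 34.1 and 121 CPM in the knockout mice. All 4 knockout mice lay below all 5 control mice, with knockout mouse 3 the lowest. The log2 difference was −1.02 ± 0.28 (SE), at an edgeR adjusted p of 0.224, while DESeq2 gave an adjusted p of 0.0337. Without knockout mice 2 and 3 the difference was −0.56. Under saline the same contrast, in other animals, was −0.25, and the difference between both contrasts was −0.77, at an edgeR adjusted p of 0.541. Drd2 and 3 genes beside it on the chromosome (Ttc12, Ankk1 and Ncam1) had a median log2 difference of 0.02, with 2 members below 0.

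Drd1, which encodes the D1 receptor (GRCm39 chromosome 13, 54205202 to 54209724), stood at 217, 179, 189, 214 and 233 CPM in control mice and at 163, 97.8, 53.7 and 162 CPM in knockout mice. Here too the groups did not overlap and knockout mice 2 and 3 were lowest. The log2 difference was −0.79 ± 0.25 (SE),, at an edgeR adjusted p of 0.227, and it was −0.34 without those 2 mice. The receptor that was not targeted was thus lower in the same libraries as the targeted one.

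Across the receptors, G proteins, kinases and phosphatase inhibitor that relay dopamine, 17 of 21 measured genes had a log2 difference below 0, as did 10543 of all 21513 genes (49%). Their median log2 difference was −0.42, against 0.00 for all genes, and it was −0.10 without knockout mice 2 and 3 and −0.26 without mouse 3 alone. By edgeR 0 of the 21 passed the test. At an unadjusted p under 0.05 there were 11 lower genes and 1 higher gene, against 5.34% and 7.44% of all genes. In 7 of the 21 all knockout mice lay below all control mice, a pattern found in 3.71% of all genes. Rgs4, which speeds the switching off of G proteins, stood at 503, 415, 408, 461 and 500.2 CPM in control mice and at 334, 177, 258 and 361 CPM in knockout mice, a log2 difference of −0.69 ± 0.19 (SE). Knockout mouse 2, rather than mouse 3, was the lowest for this gene, and the groups did not overlap. Adcy5, the main adenylyl cyclase of striatal projection neurons, was at −0.58 and overlapped between the groups. The enzymes and transporters of dopamine synthesis, uptake and breakdown, whose transcripts belong mostly to midbrain cell bodies, had 6 of 10 members below 0 and a median of −0.06. Ddc, the decarboxylase that makes dopamine, was at 34.0 CPM in knockout mouse 2 and between 13.0 and 18.3 CPM in the other 8 mice.

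Genes shared by both kinds of projection neuron had the most uniform direction of any list with lower values. All 18 lay below 0, with log2 differences from −1.01 to −0.06 and a median of −0.68. Of the 18, 17 had an unadjusted p under 0.05 in the lower direction, against 5.34% of all genes. In 11 all knockout mice lay below all control mice, against 3.71% of all genes. Nevertheless, 0 of the 18 passed the adjusted test of edgeR or of DESeq2. Less RNA of these neurons in a bulk sample can reflect fewer of the cells, less RNA per cell or a larger share of neighbouring tissue. These readings cannot be told apart here.

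The sum of the 18 genes ran from 8520 to 11110 CPM in control mice and from 3751 to 8345 CPM in knockout mice. As a mean of log2 CPM, the list stood at 8.57, 8.41, 8.48, 8.68 and 8.79 in control mice and at 8.24, 7.56, 7.22 and 8.38 in knockout mice. The groups did not overlap, though knockout mouse 4 came close to control mouse 2. Counted by mouse, 15 of the 18 genes in knockout mouse 1, 18 in mouse 2, 17 in mouse 3 and 11 in mouse 4 lay below every control mouse. Over all genes these shares were 17.1%, 28.9%, 27% and 14.3% for the same 4 mice. Without mice 2 and 3 the median was −0.30, and 17 of the 18 remained below 0. With cortical, ependymal and pallidal marker levels as covariates it was −0.41.

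The saline libraries give the range of this list in animals without amphetamine. Saline control mice ran from 7.77 to 8.33 and saline knockout mice from 7.55 to 8.24, so that amphetamine knockout mouse 1 lay within the saline values, mouse 4 just above them, mouse 2 at their lower end and mouse 3 below it. The amphetamine control mice were the only group of the 4 with every mouse above all saline mice. In the saline contrast the median of the 18 genes was −0.06, with 12 of them below 0.

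**Figure D2:**
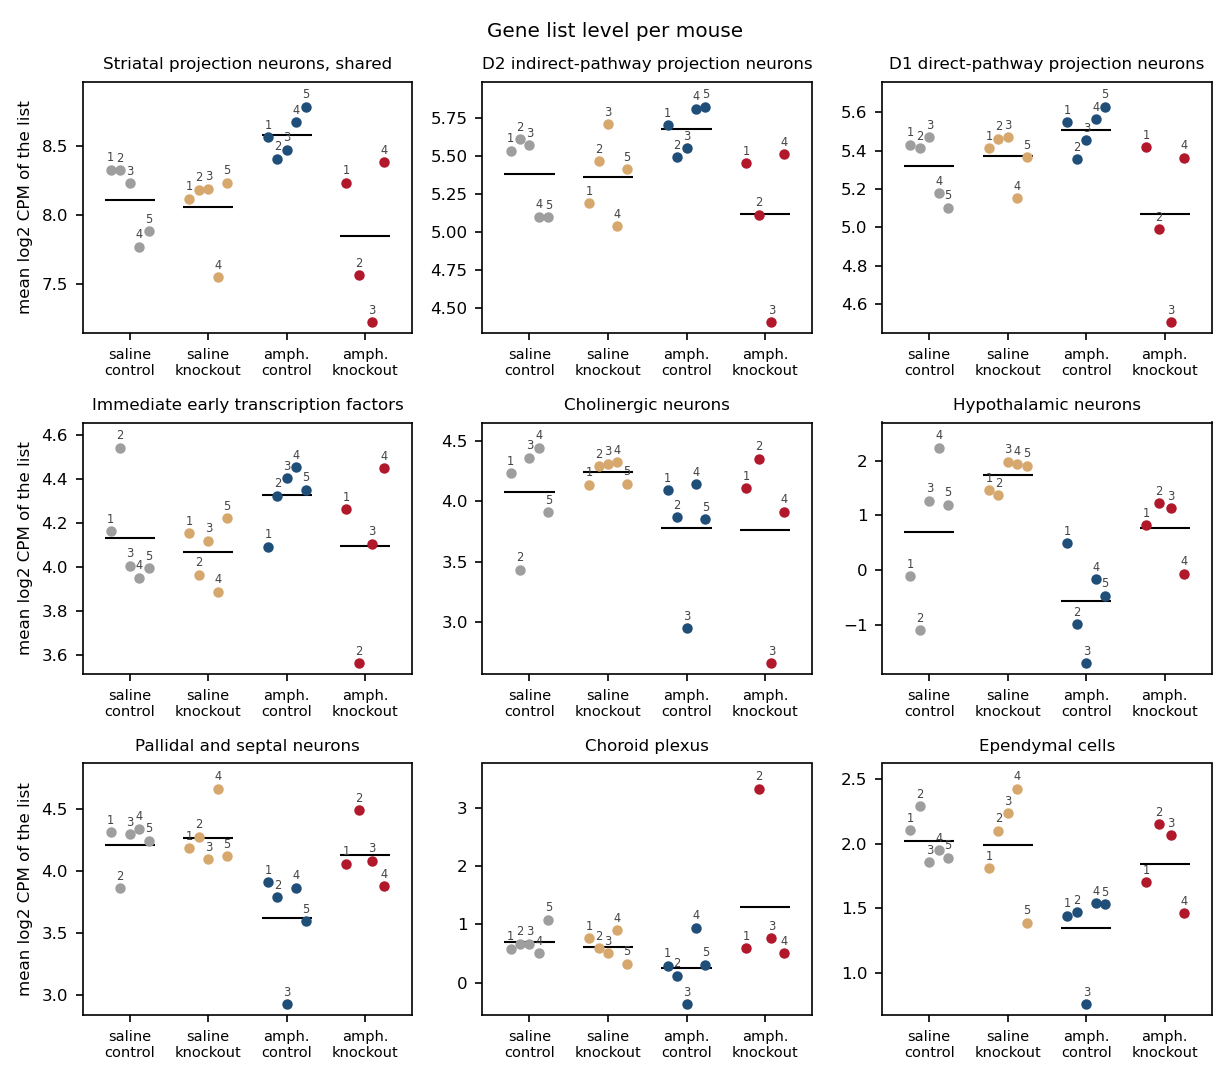
Each point is 1 mouse, numbered as in the text, and gives the mean log2 CPM of the genes of a list (y axis) in the 4 groups (x axis), and bars mark group means. For shared projection neuron genes, all amphetamine control mice lie above the other 3 groups, while choroid plexus genes are high in knockout mouse 2 and cholinergic genes are low in control mouse 3 and knockout mouse 3.

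The members with the smallest p in this list were Rasd2, Actn2, Rarb and Pde1b. Rasd2 encodes Rhes, a striatum-enriched small GTPase, and stood at 431, 379, 343, 463 and 493 CPM in control mice against 284, 178, 139 and 357 CPM in knockout mice. Knockout mouse 4 lay between control mice 2 and 3, so these groups overlapped, and the log2 difference was −0.82 ± 0.23 (SE), at an edgeR adjusted p of 0.225. Actn2, an actinin of dendritic spines, was at −0.77, Rarb, a retinoic acid receptor of the striatal lineage, at −0.73, and Pde1b, a calcium-dependent phosphodiesterase, at −0.70. In each of these last 3 the groups did not overlap. On the authors' FPKM scale, which takes gene length into account, Ppp1r1b (DARPP-32, the defining marker of projection neurons, named here for that reason) had a level of 479.5 to 619.7 in control mice and of 145 to 471 in knockout mice. This marker was thus present in all 9 libraries, at lower levels in the knockout mice.

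Markers of the indirect and of the direct pathway had similar counts. Of 10 indirect-pathway genes, 8 lay below 0, with a median of −0.51, and the same number of 10 direct-pathway genes did, with a median of −0.39. Without knockout mice 2 and 3 these medians were −0.16 and −0.10, and without mouse 3 alone they were −0.32 and −0.25. Under saline both medians were 0.04.

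Among indirect-pathway genes, Adora2a, an adenosine receptor, stood at 217, 173, 190.0, 220.1 and 226 CPM in control mice and at 146, 87.5, 42.3 and 162 CPM in knockout mice. The groups did not overlap, and the log2 difference was −0.90 ± 0.32 (SE), at an edgeR adjusted p of 0.263. Gpr52, an orphan receptor of the same neurons, was at −0.64 without overlap, and Gpr6, another orphan receptor, was at −0.57 with overlap. Among direct-pathway genes, Tac1, the precursor of substance P, stood at 325, 212, 267, 255 and 284 CPM in control mice and at 220.0, 144, 69.0 and 206 CPM in knockout mice. Knockout mouse 1 was above control mouse 2, and the log2 difference was −0.75 ± 0.25 (SE). Chrm4, the muscarinic receptor that opposes D1 signalling, and Pdyn, the precursor of dynorphin, were both at −0.50. Knockout mouse 3 was the lowest of the 9 mice for Adora2a, Gpr6, Tac1, Chrm4 and Pdyn.

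**Figure D3:**
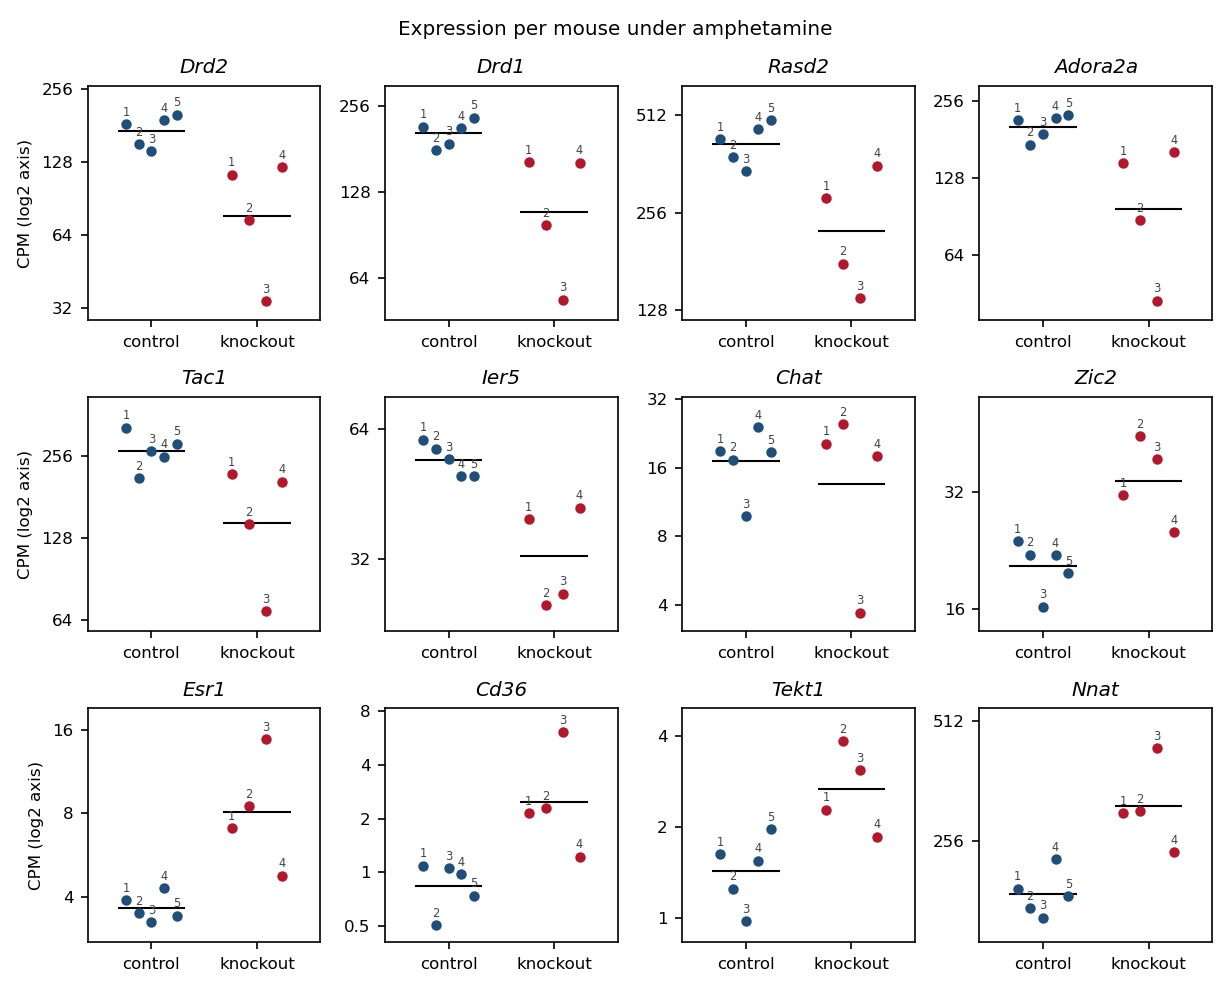
Each panel gives 1 gene, with the CPM of each mouse on a log2 axis (y axis) in control and knockout mice under amphetamine (x axis), and bars mark geometric means. Drd2, Drd1, Adora2a and Ier5 have all 4 knockout mice below the control mice, Zic2, Esr1, Cd36 and Nnat have all of them above, and the values of Chat overlap between the groups.

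Regulators of cyclic nucleotides and G proteins had 20 of 26 members below 0 and a median of −0.18, with 11 lower genes and 1 higher gene at an unadjusted p under 0.05 (5.34% and 7.44% of all genes). Pde7b, a phosphodiesterase that breaks down cyclic AMP, was at 176 ± 16.5 CPM (SD, n = 5) in control mice and at 109 ± 39.2 CPM (SD, n = 4) in knockout mice, and the groups did not overlap. Without knockout mice 2 and 3 the median of the list was −0.08. Several of these genes also belong to the projection neuron list, so both counts share members.

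DESeq2 called 2 of 32 potassium channel genes, both lower, against 0.135% of all genes. Of the 32, 24 were below 0 (49% of all genes), with a median of −0.19. At an unadjusted p under 0.05, 10 were lower and 3 higher, against 5.34% and 7.44% of all genes. Kcnab1, an auxiliary subunit of voltage-gated channels, stood at 308, 259, 251, 319 and 349 CPM in control mice and at 225, 162, 148 and 241 CPM in knockout mice. Its groups did not overlap, and its log2 difference was −0.61 ± 0.16 (SE),, at an edgeR adjusted p of 0.2201 and 0.0407 by DESeq2. Kcnk1, a leak channel, was at 84.4 ± 6.92 CPM (SD, n = 5) in control mice and 64.2 ± 10.7 CPM (SD, n = 4) in knockout mice, again without overlap, and DESeq2 gave it an adjusted p of 0.0494. Kcnd2 and Kcnip2, the pore and an accessory subunit of the A-type current, were at −0.43 and −0.53. Without knockout mice 2 and 3 the median of the list was −0.06.

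Receptors for the main fast transmitters had list medians near 0. Glutamate receptors had 14 of 22 members below 0 and a median of −0.09, and GABA receptors and transporters had 11 of 21 below 0 and a median of 0.00. Single members went both ways. Gabrd and Gabra4, subunits of the extrasynaptic GABA-A receptors of projection neurons, were at −0.66 and −0.35 without overlap, whereas Gabre, a subunit used outside the striatum, was at 1.54 and Slc6a11, the astrocytic GABA transporter, at 0.56. Grm4 (−0.56) and Grin2c (−0.41) were lower and Grik1 (0.60) was higher in knockout mice. None of these 7 genes was called by edgeR or DESeq2.

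Cholinergic interneurons, which carry D2 receptors and shape dopamine release, had markers that spanned a wide range in both groups. Chat, the acetylcholine-synthesising enzyme, stood at 18.9, 17.3, 9.85, 24.1 and 18.7 CPM in control mice and at 20.4, 24.8, 3.71 and 18 CPM in knockout mice. The groups overlapped, with 1 low mouse in each, and the log2 difference was −0.09 ± 0.36 (SE), at an edgeR adjusted p of 0.95. Without knockout mouse 3 it was 0.24. Slc18a3 and Slc5a7, the vesicular acetylcholine and the choline transporter, were at −0.18 and −0.03, and both became positive without knockout mouse 3, at 0.11 and 0.28. Of 11 cholinergic markers, 6 were below 0 with a median of −0.03. The median was 0.28 without knockout mouse 3, with 2 of 11 below 0, and −0.22 without knockout mouse 2, with 8 of 11 below 0. With the 3 tissue covariates it was −0.28 with 11 of 11 below 0, and Chat and Slc18a3 were at −0.45 and −0.49. Their mean log2 CPM was 2.95 in control mouse 3 and 2.66 in knockout mouse 3, against 3.85 to 4.35 in the other 7 mice. Slc17a8, the third vesicular glutamate transporter, carried also by these neurons, was at −0.53.

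GABAergic interneuron markers had 7 of 15 members below 0 and a median of 0.05. Npy, the neuropeptide Y precursor, stood at 30.8, 31.3, 38.4, 33.1 and 31.5 CPM in control mice and at 23.9, 19.5, 22.3 and 29.6 CPM in knockout mice. These groups did not overlap, and the log2 difference was −0.47 ± 0.17 (SE),, at an edgeR adjusted p of 0.265. Sst, the somatostatin precursor found in the same interneurons, was at −0.24 with overlap. Htr3a, a serotonin receptor channel, was at 9.39 CPM in knockout mouse 3 and between 2.56 and 3.98 CPM in the other 8 mice. Muscarinic and nicotinic receptors and esterases had a median of 0.04 over 15 genes, 7 of them below 0.

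Immediate early transcription factors, the first transcripts induced by neuronal activity, were measured 90 min after the injection. Their sum ran from 947 to 1183 CPM in control mice, 653 to 1172 CPM in knockout mice and 788 to 1207 CPM in saline mice. Means in amphetamine and saline control mice were 42.5 and 41.7 CPM for Fos and 20.4 and 20.5 CPM for Npas4. They were 175 and 145 CPM for Egr1 and 116 and 101 CPM for Arc. Induction by amphetamine was not tested here. Between knockout and control mice under amphetamine, 2 of 26 were lower at an unadjusted p under 0.05, against 5.34% of all genes. Of the 26, 21 lay below 0 (49% of all genes), with a median of −0.23. This count rested on mice 2 and 3: without them the median was 0.00 with 13 of 26 below 0, and it was −0.088 without mouse 2 alone and −0.37 without mouse 4 alone. In knockout mouse 2, 22 of the 26 lay below every control mouse, in mouse 3 there were 14, in mouse 1 there were 9 and in mouse 4 there was 1, where the shares over all genes were 28.9%, 27%, 17.1% and 14.3%. In mouse 4, 6 of the 26 lay above every control mouse, against 13.7% of all genes. Fos itself stood at 35.0, 43.9, 42.4, 53.2 and 37.9 CPM in control mice and at 48.9, 28.6, 29.8 and 47.9 CPM in knockout mice. Knockout mice 2 and 3 were below and mice 1 and 4 within the range of control mice, and the log2 difference was −0.13 ± 0.18 (SE), at an edgeR adjusted p of 0.81. Npas4, Egr1 and Arc were at −0.27, −0.29 and −0.38, and without mice 2 and 3 they were at 0.08, 0.11 and 0.07.

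Ier5, an immediate early gene linked to the heat shock response, differed from this pattern. It stood at 60.5, 57.7, 54.5, 49.8 and 49.7 CPM in control mice and at 39.6, 25.1, 26.7 and 42.1 CPM in knockout mice, with no overlap. Its log2 difference was −0.71 ± 0.17 (SE),, at an edgeR adjusted p of 0.2201 and 0.026 by DESeq2, and it was −0.41 without mice 2 and 3. Junb and Egr3 were at −0.35 and −0.33 with overlap.

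Among the later activity-induced effectors, 17 of 24 were below 0 with a median of −0.15, which was −0.02 without mice 2 and 3 and −0.072 without mouse 2 alone. Homer1, a scaffold of the postsynaptic density, had a narrow range of 177 to 189 CPM in control mice and stood at 139, 83.8, 120 and 159 CPM in knockout mice. Its log2 difference was −0.54 ± 0.16 (SE),, at an edgeR adjusted p of 0.225. Rgs2, a G protein regulator, was at −0.32 without overlap, Plk2, a synaptic kinase, at −0.35 with overlap, and Pcsk1, a prohormone convertase, at 0.33 with its highest value in knockout mouse 3.

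Among markers of tissue next to the striatum, those of the hypothalamus, of the pallidum and septum and of the ependyma had mostly higher values in knockout mice, while cortical and olfactory markers did not. Hypothalamic markers had 13 of 15 members above 0, where 51% of all genes were, with a median of 1.43, pallidal and septal markers 11 of 12 with a median of 0.46, and ependymal markers 10 of 11 with a median of 0.54. Without knockout mice 2 and 3 these medians were 0.76, 0.28 and 0.23, and the ependymal median was 0.32 without control mouse 3. With knockout mice 2 and 3 and control mouse 3 all left out, the medians were 0.70, 0.13 and 0.17. At an unadjusted edgeR p under 0.05, 9 of 15 hypothalamic, 6 of 12 pallidal and 6 of 11 ependymal markers were higher, against 7.44% of all genes. By edgeR 0 of these passed the adjusted test. DESeq2 called 1 pallidal gene and 1 ependymal gene, both higher, against 0.344% of all genes. In knockout mice 1, 2 and 3 there were 10, 9 and 10 hypothalamic, 7, 10 and 7 pallidal and 6, 9 and 9 ependymal markers above every control mouse. In mouse 4 there were 1, 1 and 0. Over all genes the shares above every control mouse were 18.2%, 28.7%, 25.9% and 13.7% in knockout mice 1 to 4. The part of these markers in the difference of the projection neuron genes was not tested beyond the fit with covariates given above.

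Their levels varied between mice within a group. Hypothalamic markers summed to 76.0 to 192 CPM in control mice, 169 to 275 CPM in knockout mice and 174 to 528 CPM in the saline mice, and 4 of the 15 were at 0 in at least 1 amphetamine library. Pallidal and septal markers summed to 155 to 307 CPM in control mice, 286 to 486 CPM in knockout mice and 293 to 537 CPM in saline mice. Ependymal markers summed to 27.2 to 45.2 CPM in control mice, 43.2 to 64.5 CPM in knockout mice and 41.7 to 76.4 CPM in saline mice. For these lists the knockout mice lay within or near the saline range, and the amphetamine control mice reached below it. Control mouse 3 was the lowest of all 19 mice in each of the 3 lists by mean log2 CPM.

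Zic2, a transcription factor of the septum, stood at 23.9, 22.1, 16.2, 22 and 19.8 CPM in control mice and at 31.3, 44.4, 38.8 and 25.2 CPM in knockout mice. The groups did not overlap, and the log2 difference was 0.75 ± 0.18 (SE),, at an edgeR adjusted p of 0.2201 and 0.0265 by DESeq2. Tekt1, a tektin of motile cilia, stood at 1.62, 1.25, 0.978, 1.55 and 1.97 CPM in control mice and at 2.28, 3.84, 3.07 and 1.85 CPM in knockout mice. Knockout mouse 4 fell within the control range, and DESeq2 gave an adjusted p of 0.0242. Cfap126, another ciliary gene, was at 0.84, Dlk1 at 0.69, and the hypothalamic peptide genes Trh, Ghrh and Pmch at 1.63, 1.75 and 1.43, with 0 counts of Ghrh in control mouse 3. Hmx2, a hypothalamic transcription factor, was at 0.608 and 0.853 CPM in knockout mice 1 and 2 and at most 0.141 CPM in the other 7 mice. Slc17a6, the glutamate transporter of thalamic and other subcortical neurons, was at 0.76. The thalamic list had 9 of 10 members above 0 and a median of 0.21.

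Choroid plexus genes differed through 1 library. All 12 were above 0 with a median of 1.39, and 11 had an unadjusted p under 0.05 in the higher direction, against 7.44% of all genes. Their sum ran from 34.0 to 82.6 CPM in control mice and from 54.1 to 733 CPM in knockout mice, the highest being mouse 2. In that mouse all 12 lay above every control mouse, as did 28.7% of all genes. Folr1, the folate receptor of the choroid plexus, was at 3.70 CPM in mouse 2 and at most 0.586 CPM in the other 8, and Kcne2 was at 2.20 CPM in mouse 2 and at most 0.206 CPM in the others. Prlr, the prolactin receptor, was also high in mouse 3, at 23.2 CPM against 35.1 CPM in mouse 2 and at most 9.39 CPM in control mice. Without knockout mouse 2 the median of the list was 0.20.

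Cortical projection neuron genes had a median of −0.04, with 7 of 13 below 0, and the 4 knockout mice spanned the control mice. Their mean log2 CPM was 4.16, 3.18, 5.48 and 4.81 in knockout mice 1 to 4 and from 4.12 to 5.14 in control mice. Bhlhe22 and Neurod1, transcription factors of cortical excitatory neurons, were at 81.1 and 18.4 CPM in knockout mouse 3 and at most 17.8 and 6.41 CPM in the other 8 mice. Without that mouse all 13 cortical genes were below 0 with a median of −0.46, and Bhlhe22 and Neurod1 were at −0.31 and −0.23.

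Fibroblast and meningeal genes had 12 of 13 members above 0 and a median of 0.51, which was 0.48 without knockout mice 2 and 3, 0.85 without control mouse 3 and 0.35 without control mouse 4. In the saline contrast all 13 lay below 0 with a median of −0.44, so the list had opposite signs in the treatments, a difference that was not tested for the list. Dcn, the matrix proteoglycan decorin, stood at 17.5, 7.70, 27.1, 9.32 and 15.0 CPM in control mice and at 28.8, 30.1, 68.8 and 17.8 CPM in knockout mice. The groups overlapped, and the log2 difference was 1.25 ± 0.40 (SE), at an edgeR adjusted p of 0.236. Col6a2 was at 0.31 under amphetamine and −0.49 under saline, and the difference between them was 0.80. Its adjusted p of 0.451 was the lowest in that edgeR comparison, a value also reached by Zfp185. Col1a2, a fibrillar collagen, was at 0.60, and Igf2, a growth factor made by meningeal cells, at 1.07.

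The 20 genes with the smallest p are named although none was called by edgeR, each having an adjusted p of 0.2201. Of these 20, 17 were higher and 3 lower in knockout mice, 18 had groups without overlap, where 3.08% of all genes had this with knockout mice higher and 3.71% with knockout mice lower, and 18 were called by DESeq2. Since the genes were picked by p, these counts describe the choice. In 16 of the 17 higher genes the highest value of the 4 knockout mice was in mouse 2 or 3. All 20 kept their sign without both, but in the 18 without overlap this was nearly fixed beforehand. There the remaining knockout mice also lie beyond every control mouse.

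Cd36, a fatty acid and lipoprotein receptor (GRCm39 chromosome 5, 17986688 to 18093799), ranked first. It stood at 1.09, 0.507, 1.05, 0.976 and 0.743 CPM in control mice and at 2.15, 2.29, 6.10 and 1.23 CPM in knockout mice. The groups did not overlap, mouse 3 was far above the others, and the log2 difference was 1.75 ± 0.34 (SE), or 0.95 without mice 2 and 3. Esr1, estrogen receptor alpha (GRCm39 chromosome 10, 4561593 to 4955614), stood at 3.88, 3.48, 3.24, 4.30 and 3.41 CPM in control mice and at 7.07, 8.52, 14.9 and 4.76 CPM in knockout mice. The groups again did not overlap, the mean of the knockout mice was 2.40 times that of the control mice, and the log2 difference was 0.70 without mice 2 and 3. Zfp423, a zinc finger transcription factor of neural precursors, stood at 15.9, 16, 14.9, 20 and 18.2 CPM in control mice and at 24.8, 29.3, 39 and 22 CPM in knockout mice, a log2 difference of 0.76 ± 0.15 (SE).

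The other protein-coding genes that were higher included transporters, a structural protein and enzymes. Slc5a5, the sodium iodide symporter, was at 12.6 ± 0.918 CPM (SD, n = 5) in control mice and at 19.4 ± 2.08 CPM (SD, n = 4) in knockout mice, and its difference of 0.63 was 0.49 without mice 2 and 3. Crocc2, related to the ciliary rootlet protein, was at 1.27, and Npas3, a neuronal transcription factor, at 0.52. Etnk2, an ethanolamine kinase, was at 0.99, Bbox1, which completes carnitine synthesis, at 1.02, and Myo1h, an unconventional myosin, at 1.33. Zfp185 (1.30) and Tmem255a (0.83) were also higher, and the values of Zfp185 and Bbox1 overlapped between groups. Under saline Zfp185 was at −0.63, and the difference of 1.93 between both contrasts had an edgeR adjusted p of 0.451. Arg1, the urea cycle arginase, had 0 counts in control mice 1 and 2 and between 0.0252 and 0.279 CPM in the other 7 mice, so its fitted log2 difference rests on few counts.

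Atp2b1, a plasma membrane calcium pump (GRCm39 chromosome 10, 98750268 to 98862005), was the most abundant of the 20. It stood at 1021, 937, 922, 957 and 1008 CPM in control mice and at 726, 475, 509 and 774 CPM in knockout mice. All knockout mice were below all control mice, and the log2 difference was −0.64 ± 0.15 (SE), with an adjusted p of 0.0178 by DESeq2, and −0.37 without mice 2 and 3. Cnst, consortin, which takes part in connexin trafficking, was at −0.45, also without overlap. Gm10060, a processed pseudogene at 0.793 ± 0.15 CPM (SD, n = 5) in control mice and 0.342 ± 0.095 CPM (SD, n = 4) in knockout mice, was at −1.22, and pseudogenes can share reads with near-identical copies.

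The noncoding and predicted genes among the 20 were less certain. Rmst, a long noncoding RNA of midbrain and neural precursors, was at 0.93 with its highest values, 10.7 and 8.16 CPM, in knockout mice 2 and 3. Gm32444 (0.61) and Gm37773 (0.52) lie close together on GRCm39 chromosome 3, at 118330670 to 118334180 and 118319800 to 118321919,. Gm37773 was the only one of the 17 higher genes whose highest value was in knockout mouse 1 or 4, and its difference was 0.59 without mice 2 and 3. Gm43210 (1.30) overlaps Col25a1, Gm37773 overlaps Gm26871, and Tmem255a and Myo1h overlap 1 named gene each, so reads may be shared where the strand of counting is not known. Gm8281 (1.07), a predicted protein-coding gene, may share reads with similar copies.

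Neuropeptide precursors and granins had 9 of 20 members below 0 and a median of 0.03. Nnat, neuronatin, an imprinted membrane protein of the endoplasmic reticulum, stood at 194, 174, 164, 230.1 and 186 CPM in control mice and at 300.3, 304, 439 and 240.2 CPM in knockout mice. The groups did not overlap, and the log2 difference was 0.76 ± 0.18 (SE),, at an edgeR adjusted p of 0.2201 and 0.0242 by DESeq2. It was 0.52 without mice 2 and 3. Tac2, the neurokinin B precursor, was at 1.24, with 16.7 and 18.5 CPM in knockout mice 2 and 3 and at most 6.92 CPM in the other 7.

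Glial and vascular lists had small medians. Astrocyte genes were at 0.07, oligodendrocyte genes at −0.05, their precursors at 0.05, microglia at −0.12 and endothelial cells with pericytes at −0.09. Of 10 oligodendrocyte genes, 10 lay below every control mouse in knockout mouse 3 (27% of all genes). In mouse 2, 5 lay above every control mouse (28.7% of all genes). Of 12 microglial genes, 10 were below 0, and in mouse 2, 11 lay below every control mouse (28.9% of all genes). Under saline all 12 were above 0, with a median of 0.25. Gja1, the astrocytic connexin, was at 195 ± 5.09 CPM (SD, n = 5) in control mice and at 221 ± 17.5 CPM (SD, n = 4) in knockout mice, a log2 difference of 0.18 without overlap. Olig2 and Cspg4, of the precursor lineage, were at 0.27 and 0.26, and were at 0.25 and 0.24 without mice 2 and 3. None of these 3 genes was called by edgeR or DESeq2.

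Stress, clock and metabolic lists also stayed near 0. Heat shock chaperones had 15 of 20 members below 0 and a median of −0.07, with Hsph1 at −0.37 and Hspa4 at −0.18, both without overlap. Endoplasmic reticulum chaperones were at 0.00, cholesterol synthesis at −0.05, ribosomal proteins at 0.05 and mitochondrially encoded transcripts at 0.00. Nuclear genes of the respiratory chain had 19 of 24 below 0 with a median of −0.13, and Ndufs1, a subunit of complex I, was at −0.20. Clock genes had 14 of 18 below 0 with a median of −0.09, led by Dbp at −0.47 without overlap and by Nr1d2 at −0.19. Glucocorticoid-induced genes had a median of 0.13, with Zbtb16 at 0.77, and matrix genes a median of 0.11, with Sparc at 0.83 and its highest value, 943 CPM, in knockout mouse 2. Interferon-induced genes had 15 of 15 members above 0 with a median of 0.30. At an unadjusted p under 0.05, 1 of the 15 was higher, namely Ifit2 at 0.32, against 7.44% of all genes. The median of this list was 0.17 without knockout mouse 1, with 13 of 15 above 0, and 0.19 without knockout mouse 2. Blood genes were at 0.40, but at 0.0080 without knockout mouse 1, with 4 of 7 above 0, and genes of the olfactory bulb and the islands of the olfactory tubercle at −0.54, or 0.013 without control mouse 3, where the saline contrast had −1.30.

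**Figure D4:**
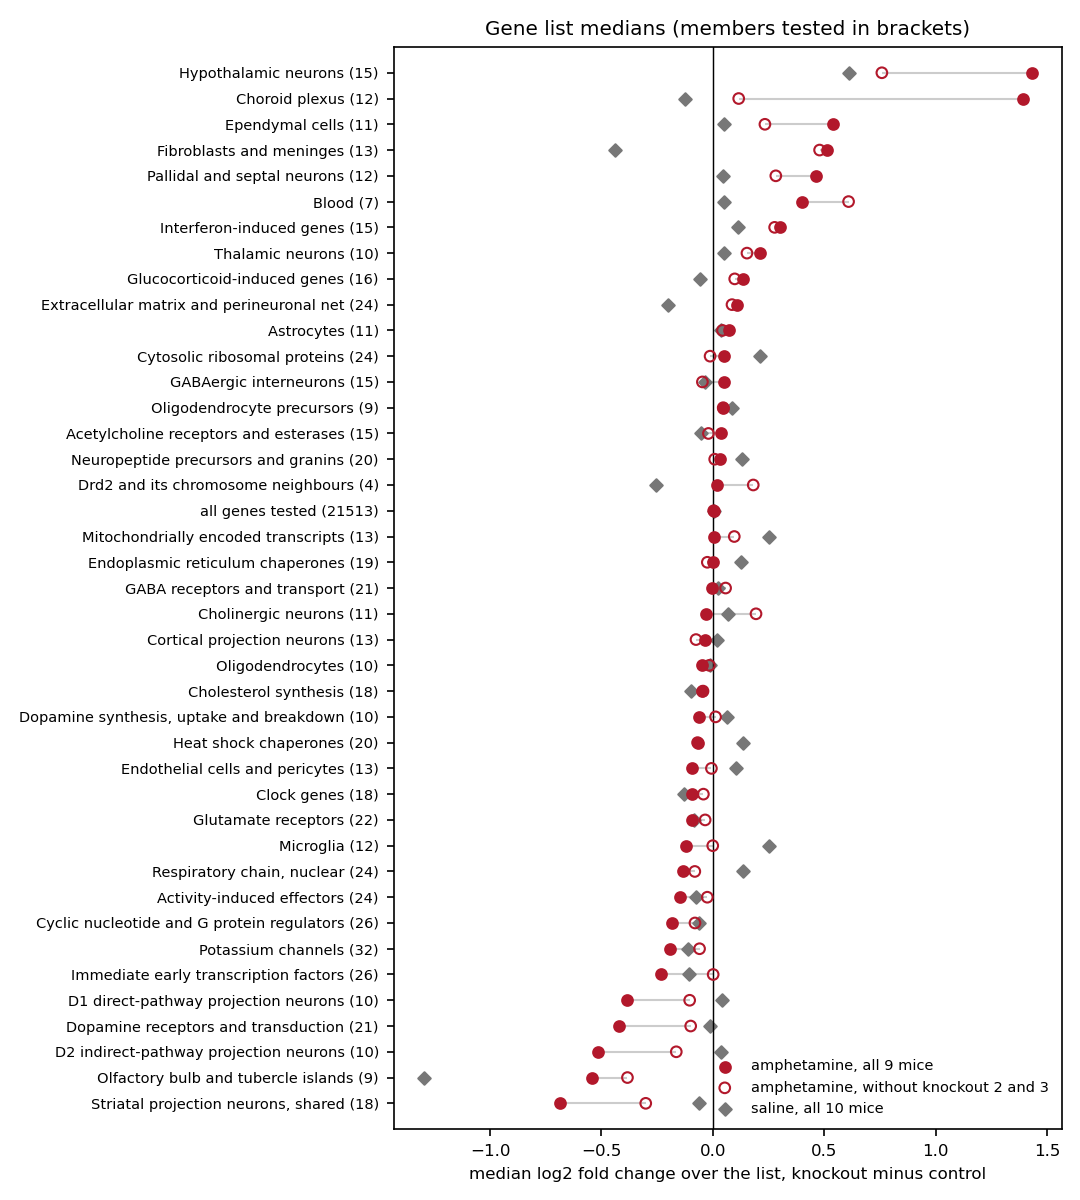
Each row is 1 gene list with its number of tested members, and the x axis gives the median log2 difference between knockout and control mice: filled red for all 9 amphetamine mice, open red without knockout mice 2 and 3, grey diamonds for the 10 saline mice. With all 9 mice the projection neuron lists lie on the left and the hypothalamic, choroid plexus and ependymal lists on the right, and for each of these the open symbol lies closer to 0.

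Under saline edgeR called 0 genes (0%) between knockout and control mice, with 1708 at an unadjusted p under 0.05 (7.94%) and a lowest adjusted p of 0.614. The amphetamine count of 2749 was above this, and it was 1575, below the saline count, without knockout mouse 2. It was 2771, 1901 and 3275 without knockout mouse 1, 3 or 4, and 2290 to 2458 without any 1 control mouse. Fewer mice alone can lower such a count, and no saline mouse was left out to match. Groups did not overlap in 110 genes with knockout mice higher (0.511%) and in 86 with knockout mice lower (0.4%), where each saline group has 5 mice. The difference between both contrasts was called for 0 genes by edgeR (0%), with 1991 at an unadjusted p under 0.05 (9.25%) and a lowest adjusted p of 0.451. Across the 21513 genes, which are not independent, the log2 differences of both contrasts had a correlation of 0.05, and the contrasts share no library. The median absolute log2 difference was 0.141 under amphetamine and 0.127 under saline.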

How the data were processed

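Striatal RNA was sequenced, and the authors deposited whole-number counts per gene for each mouse. Per the submitters' processing notes, STAR 2.6.0c, HTSeq 0.6.1p2, Trim Galore 0.5.0, FastQC 0.11.5, R 3.6.1, DESeq2 1.26.0s and the build GRCm39 were in use. Their order and settings, the annotation release and the strand of counting were not given, which matters where genes overlap or are near-identical. The authors' tables also hold FPKM, scaled by gene length and library, deposited per mouse and used for levels between genes. Their p-values and log2 fold changes, also deposited, were not used, and no deposited table covers this contrast.

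Of 49592 genes, 21513 passed filterByExpr and were fitted in R 4.3.3 with edgeR 4.0.16 (TMM, robust quasi-likelihood, 4 group means over 19 libraries), Benjamini-Hochberg adjusted and called under 0.05. The SE is the log2 fold change over the root of F. limma 3.58.1 (voom) and DESeq2 1.42.0 were alternatives, and the code was tested on simulated data. CPM is scaled by TMM, and list levels are means of log2 CPM with a prior count of 2. Named genes are the 20 with the smallest p, 9 fixed genes, and up to 4 members with the smallest p of each of 40 lists. The members and lists were chosen with earlier results of these data known, so no p is given for a list. Some list members that the rule names are not reported here.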

Additional observations from a re-analysis of the deposited data

Results flagged for a closer look

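In 272 groups of 4 or 5 amphetamine mice (each gene named in the text and each list level, by group), 20 held a highest or lowest mouse that stood apart from the rest by Dixon's test, and chance alone flags about 1 in 20. Knockout mouse 2 was highest for Folr1 (3.70 CPM), Kcne2 (2.20 CPM), Ddc (34.0 CPM), Sparc (943 CPM) and the choroid plexus level (3.34). Knockout mouse 3 was highest for Bhlhe22 (81.1 CPM), Neurod1 (18.4 CPM), Htr3a (9.39 CPM) and Pcsk1 (51.9 CPM), and lowest for Slc18a3 (2.14 CPM). Control mouse 3 was lowest for Slc18a3 (3.68 CPM), Prlr (0.871 CPM), the cholinergic level (2.95) and the ependymal level (0.756). Control mouse 1 was lowest for Npas4 (14.6 CPM) and highest for the level of endoplasmic reticulum chaperones (6.34). Control mouse 5 was highest for Gm32444 (5.34 CPM), Gja1 (204 CPM) and the glucocorticoid-induced level (4.70), and control mouse 4 for Gm10060 (1.06 CPM). Levels are means of log2 CPM.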

How the results depend on the processing

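The number of genes called (0 in the main fit) was 0 with RLE scaling, limma voom, no filter on low counts, the amphetamine libraries alone and 3 tissue covariates, 0 with each mouse left out in turn, 103 by DESeq2, and 1 without knockout mice 2 and 3 and without these and control mouse 3. That 1 gene was Igkv4-53, an immunoglobulin segment outside the main filter and named after its values were seen, at log2 differences of 6.53 and 6.29. The count at an unadjusted p under 0.05 (2749) was 795 with covariates and 479 without the 3 mice. Igkv4-53 had 71 and 40 counts in knockout mice 1 and 4 and at most 3 in every other library.

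The fit with the replicate number as a block called 0 genes and gave a median of 0.18 for interferon-induced genes. Deviations of log2 CPM from the group mean were correlated between amphetamine knockout and control mice. Same-numbered mice had correlations of 0.006, −0.08, 0.086 and 0.014, and differently numbered mice ranged from −0.217 to 0.159. The replicate numbers follow the titles, whereas the library labels of the amphetamine knockout mice skip a number. Same-numbered mice may therefore not be partners, and these values cannot show whether the mice were paired.

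Without knockout mice 2 and 3, a setting added after seeing the data, list medians were −0.30 for shared projection neuron genes, 0.12 for choroid plexus, −0.10 for dopamine transduction and −0.060 for potassium channels. Signs reversed for Chat (0.12), Slc18a3 (0.15), Slc5a7 (0.19), Fos (0.19), Npas4 (0.084), Egr1 (0.11), Arc (0.073), Folr1 (−0.010), Bhlhe22 (−0.072) and Neurod1 (−0.040). Without control mouse 3 as well, list medians were −0.087 for GABAergic interneurons, 0.17 for ependymal cells, 0.024 for choroid plexus, 0.081 for olfactory genes, −0.11 for dopamine transduction and −0.040 for potassium channels, and reversed genes were Slc5a7 (0.048), Fos (0.19), Npas4 (0.13), Egr1 (0.13), Arc (0.077) and Folr1 (−0.22). With tissue covariates, medians were −0.0046 for oligodendrocyte precursors, 0.065 for ependymal cells, 0.34 for choroid plexus, −0.045 for pallidal and septal neurons, 0.21 for olfactory genes, −0.12 for acetylcholine receptors, −0.28 for cholinergic neurons and −0.039 for the respiratory chain, and reversed genes were Fos (0.035), Npas4 (0.065) and Egr1 (0.0092). The covariates were the levels of the cortical, ependymal and pallidal and septal lists, so this fit cannot check the medians of those lists. The cause of the other shifts was not tested.

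Leaving out 1 mouse in turn, medians ran from −0.0040 to 0.14 for oligodendrocyte precursors, 0.20 to 1.64 for choroid plexus, −0.61 to 0.013 for olfactory genes, −0.067 to 0.044 for dopamine synthesis, −0.080 to 0.16 for acetylcholine receptors and 0.026 to 0.13 for matrix genes, −0.46 to 0.043 for cortical, −0.22 to 0.28 for cholinergic, 0.0080 to 0.63 for blood, −0.17 to 0.074 for oligodendrocyte, 0.35 to 0.85 for fibroblast and 0.17 to 0.39 for interferon-induced genes. Genes that changed sign ran from −0.34 to 0.24 (Chat), −0.36 to 0.11 (Slc18a3), −0.22 to 0.28 (Slc5a7), −0.31 to 1.65 (Bhlhe22) and −0.23 to 1.35 (Neurod1), each doing so without knockout mouse 3, Chat also without control mouse 4 and Slc5a7 without control mouse 1, 4 or 5.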
